A study of Mus musculus with 6 samples.

Results

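The genes of MHC class II antigen presentation were followed in RNA-seq libraries of mouse bone marrow mesenchymal stem cells (BMSCs) grown with or without nickel. The 7 genes were taken by name from the annotation columns of the count table: H2-Aa, H2-Ab1, H2-Eb1, H2-DMa, H2-DMb1, Cd74 and Ciita. All 7 were found among the 54532 genes of the table, and 5 of them were among the 14624 genes that passed the filter on low counts and were tested. H2-Ab1 and Ciita lay under that filter and are described by their counts.

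The cells were primary, adherent marrow cells of wild type mice, kept in both groups for 7 days in osteogenic medium with ascorbic acid, β-glycerophosphate and dexamethasone. The control group had 3 libraries without added nickel, and the Ni group had 3 libraries of cultures given 0.1 μM NiCl2. The mouse strain, sex and age of the donors are not given in the sources used here, and the labels and the methods give different dexamethasone concentrations for the medium. The series describes the libraries of a group as biological replicates. As bulk libraries were sequenced, fewer cells of a type and less RNA per cell cannot be told apart.

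MHC class II molecules are heterodimers of an α and a β chain that carry peptides from the endosomes of dendritic cells, macrophages and B cells to the cell surface, where CD4 T cells read them. The invariant chain, made by Cd74, guides newly made dimers to the endosome and blocks their groove until lysosomal proteases cut it, and the H2-DM dimer then exchanges its last fragment for antigenic peptide. Transcription of these genes is switched by CIITA, a coactivator with no DNA binding of its own that sits on the RFX, CREB and NF-Y factors bound to the W/S, X and Y boxes of their promoters, and interferon gamma is its classical inducer. In macrophages the class II genes are low at rest and strongly inducible, and stromal cells normally hold very little of them.

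Letters of the X and Y boxes were searched in the whole promoter window of the class II genes that have one in RefSeq (GRCm38.p6). The W/S box was not searched. The 100 bases from 130 to 31 bases before the transcription start are the stretch shown. Windows were found for 4 of the 7 genes (H2-Aa, H2-Eb1, H2-DMa and H2-DMb1), and not for H2-Ab1, Cd74 and Ciita. The letters searched were TGATTGG for the Y box, which holds the inverted CCAAT sequence that NF-Y binds, and ACNGATG for the end of the X box. Both the letters and the spacing were chosen after these windows had been read, so a match is a description only. The RefSeq start of H2-DMb2 lies downstream of the start of its counted gene at 34143307, so the bases shown for it lie inside that gene. The sequences of the chain genes H2-Aa and H2-Eb1 and of 3 related genes are shown 5′ to 3′ on the strand of each gene, with the matching letters in capitals.
H2-Aa, chr17:34287854-34287953, minus strand: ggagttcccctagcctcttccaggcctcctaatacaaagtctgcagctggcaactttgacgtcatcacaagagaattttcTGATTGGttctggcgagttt
H2-Eb1, chr17:34305737-34305836, plus strand: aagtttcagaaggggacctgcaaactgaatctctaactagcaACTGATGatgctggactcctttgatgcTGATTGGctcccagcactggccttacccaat
H2-Eb2, chr17:34325545-34325644, plus strand: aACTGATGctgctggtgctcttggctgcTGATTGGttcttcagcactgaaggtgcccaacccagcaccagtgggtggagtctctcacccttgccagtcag
H2-DMb2, chr17:34145119-34145218, plus strand: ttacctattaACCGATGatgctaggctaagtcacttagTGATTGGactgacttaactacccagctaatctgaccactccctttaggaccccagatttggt
H2-Ob, chr17:34238775-34238874, plus strand: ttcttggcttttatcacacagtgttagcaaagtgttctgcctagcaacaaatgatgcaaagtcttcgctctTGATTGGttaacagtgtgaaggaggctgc

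In H2-Eb1 the X letters began 88 bases and the Y letters 61 bases before the start, a spacing of 27 bases. H2-DMb1 held both as well, 28 bases apart, but its RefSeq start lies downstream of the start of the counted gene at 34153072. Of the 100 bases from 130 to 31 before the RefSeq start of H2-DMb1, 89 lie in annotated exons, and both sets of letters are among these. H2-Aa and H2-Ob held the Y letters without the X letters on the gene's strand. The 2 RefSeq windows of H2-DMa held neither, but they lie at chr17:34122582-34122881 and chr17:34125268-34125567, upstream of the start of the counted gene at 34135182, so the bases before that start were not read. The X letters with the Y letters 25 to 35 bases downstream on the gene's strand were found in 5 of 32851 promoter windows (0.0152%), those of H2-Eb1, H2-DMb1, H2-DMb2, H2-Eb2 and BC051142, all on chromosome 17. On either strand, the Y letters alone were in 7.82% of windows and the X letters alone in 9.85%. Of the class II genes with both, H2-Eb2 had no count in any library, and H2-DMb1 had a mean of 2.50 FPKM, reads per gene length and depth. H2-Eb1 had a mean of 1.44 FPKM and H2-DMb2 of 1.09 FPKM.

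Libraries held from 16101033 to 18642504 counts, so a gene with no count in a library may reach 0.163 to 0.189 CPM (counts scaled to the library size), the level of 3 counts. Control replicate 3 stood apart from its group: its mean distance on log2 CPM (1 minus Pearson's r) was 0.0220 to the other controls and 0.0131 to the Ni libraries. The fold change of each tested class II gene is therefore also given without it. Of 12 stromal and osteoblast markers all were tested, and 8 were higher and 1 lower in the Ni group when p was taken unadjusted under 0.05 (median log2 fold change 0.71). Of all tested genes, 7.59% were higher and 5.83% lower at that threshold. The stromal and osteoblast markers summed to 11655 to 19228 CPM in the controls and 23823 to 31313 CPM in the Ni libraries. The 23 macrophage markers, also all tested, summed to 28606 to 33093 CPM in the controls and 28348 to 29012 CPM in the Ni libraries, so that transcripts of macrophages were abundant under a mesenchymal stem cell label. Markers of lymphocytes were mixed: the B cell genes Ms4a1 and Fcer2a and the T cell genes Cd3e, Cd3d and Cd8a had no count in any library, but Ighm had a mean of 47.8 FPKM, Cd79b 16.5, Ebf1 4.09 and Cd4 6.85.

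The class II genes were low for cultures so rich in macrophage transcripts, and their levels per gene length, given in FPKM, spread over several orders of magnitude. Cd74 had the highest level, with a mean of 14.3 FPKM over the 6 libraries and a range of 8.43 to 19.8. H2-DMa followed with 9.66 FPKM (7.66 to 11.6). These neighbours overlapped, and Cd74 was the higher in 5 of 6 libraries. H2-DMb1 lay at 2.50 FPKM (1.64 to 3.68), below every value of H2-DMa. H2-Eb1 lay at 1.44 FPKM (0.634 to 2.21), overlapping H2-DMb1, although it was the lower of the pair in all 6 libraries. The remaining chain genes were lower again, H2-Aa at 0.355 FPKM (0 to 0.761) and H2-Ab1 at 0.172 FPKM. Their ranges overlapped with each other, and the lowest value of H2-Ab1, no count in control replicate 1, lay under those of Ciita. Ciita was the lowest, at 0.0189 FPKM (0.00568 to 0.0418). Of the tested genes, 76.1% had a lower mean FPKM than Cd74, 66.8% a lower one than H2-DMa, 24.4% a lower one than H2-Eb1 and 7.32% a lower one than H2-Aa.

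**Figure D1:**
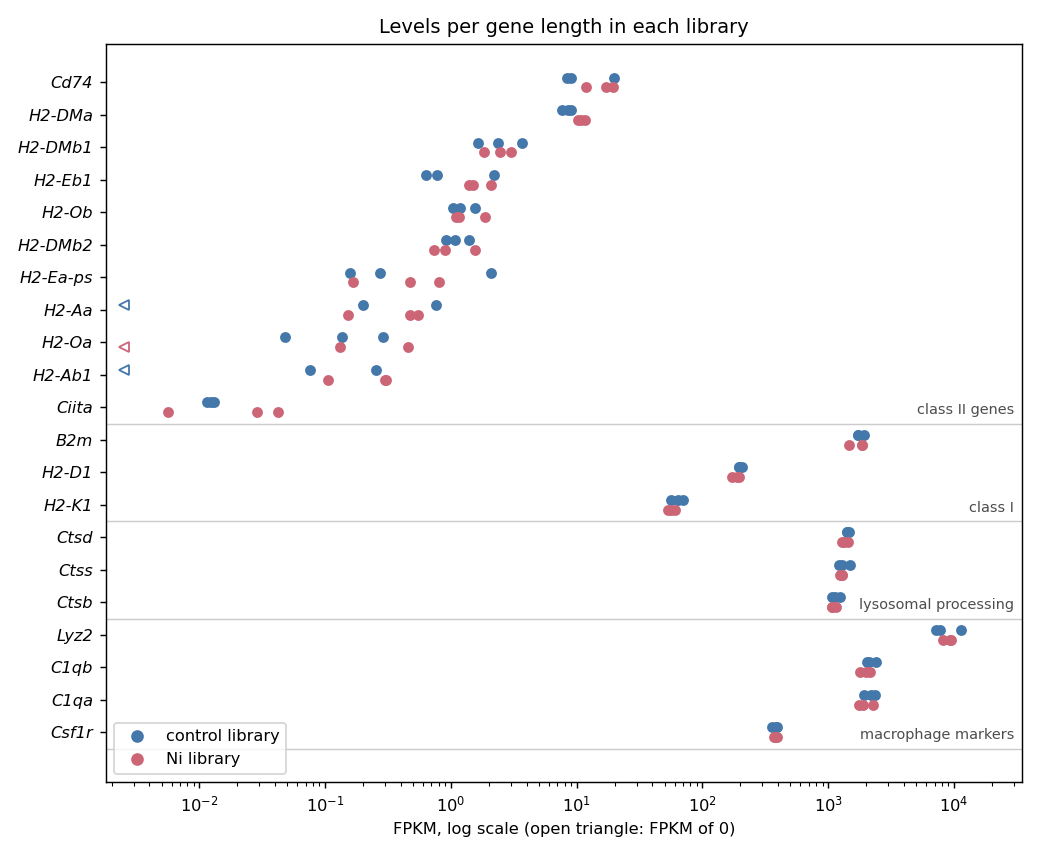
FPKM on a log axis of the class II genes and of abundant class I, lysosomal and macrophage genes, with 1 point for each control (blue) and Ni (red) library and an open triangle for a value of 0. Where not at 0, the class II genes lie between 0.00568 and 19.8 FPKM, below the class I, lysosomal and macrophage genes drawn under them.

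Ratios of FPKM within a library place the class II genes beside genes of the same libraries. Csf1r, the receptor for macrophage colony-stimulating factor, was 19.8 to 42.8 times Cd74 (median 26.6), and lysozyme, Lyz2, was 478 to 925 times Cd74 (median 627). Ctss, the cathepsin that makes the late cuts in the invariant chain of myeloid cells, was 66.7 to 144 times Cd74. Transcripts of this protease were thus far more abundant than those of its substrate. B2m, the light chain of class I molecules, was 86.6 to 228 times Cd74. H2-D1, a class I heavy chain, was 272 to 1124 times H2-Aa in the 5 libraries with a count of H2-Aa.

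The invariant chain and the chains it escorts were not in equal amounts. Cd74 was 8.21 to 14.1 times H2-Eb1 (median 9.88) and, in 5 libraries, 26.0 to 78.7 times H2-Aa (median 36.5). Within the peptide editor, H2-DMa was 2.47 to 5.58 times H2-DMb1 (median 4.16), although their proteins pair as α and β chains. Reads of H2-DMb1 are uncertain, since 22.65% of its 50-base exon stretches are identical in H2-DMb2, and the way shared reads were counted is not given in the sources used here.

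No class II gene differed between the Ni and control groups by edgeR's quasi-likelihood test at a Benjamini-Hochberg adjusted p under 0.05, as for all 14624 tested genes (0% called). DESeq2 called none of H2-Eb1, H2-DMa, H2-DMb1 and Cd74 either, and gave H2-Aa no adjusted p. H2-DMa, at chr17:34135182-34139101, came nearest, with all Ni libraries above all control libraries. At an unadjusted p under 0.05, 1 of the 5 tested members (H2-DMa) was higher in the Ni group and none lower, where 7.59% of all tested genes were higher and 5.83% lower. Ni libraries lay entirely above the controls in 1 of the 5, against 7.97% of all tested genes, and entirely below in none, against 6.71%. The fold changes of 4 of the 5 were positive, with a median of 0.37 on the log2 scale beside -0.01 for all tested genes. Over all tested genes, 7028 fold changes were positive and 7596 negative. With 5 genes, these counts cannot be told from the background.

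**Figure D2:**
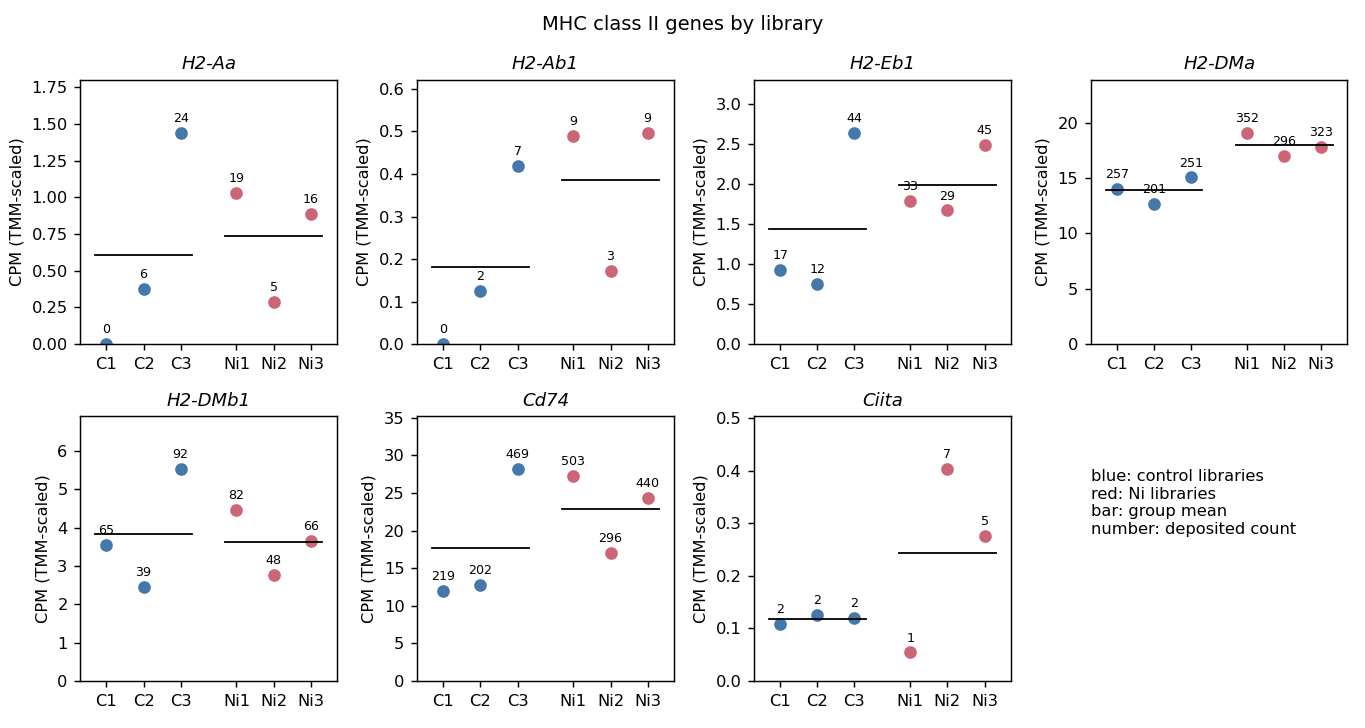
CPM scaled by TMM for each of the 7 class II genes in the control (C1 to C3) and Ni (Ni1 to Ni3) libraries, with the deposited count above each point and a bar at the group mean. For H2-DMa every Ni library lies above every control, and for Cd74, H2-Eb1 and H2-Aa control replicate 3 is the highest control.

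Ciita, the switch of the pathway (chr16:10480059-10528418), was close to the limit of detection. It had 2 counts in each of the 3 control libraries, and 1, 7 and 5 with Ni. The groups overlapped, and the sums of 6 and 13 counts gave a ratio of Ni to control of 2.04 with an exact Poisson interval of 0.725 to 6.56, which covers counting error only. Of its 9535 exon bases, 329 lie under Dexi on the other strand, and whether strand was used in counting is not given in the sources used here.

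H2-Ab1, the β chain of the A molecule (chr17:34263209-34269418), was scarcer than its partner. Its counts were 0, 2 and 7 in the controls and 9, 3 and 9 in the Ni libraries. Control replicate 3 lay among the Ni values, and the sums of 9 and 21 counts gave a ratio of 2.20 (exact Poisson interval 0.966 to 5.46, counting error only). H2-Aa, the α chain (chr17:34282744-34287827, minus strand), was counted 0, 6 and 24 times in the controls, against 19, 5 and 16 times with Ni. The lowest and the highest library were both controls. The mean level was 0.606 ± 0.746 CPM (SD, n = 3) in the controls and 0.734 ± 0.394 CPM (SD, n = 3) in the Ni group. The log2 fold change was 0.30 (SE 0.95, edgeR adjusted p = 0.920), and it was 2.01 without control replicate 3, -0.31 without control replicate 1 and -0.02 without Ni replicate 1. Its direction thus depended on which library was kept.

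H2-Eb1, the β chain of the E molecule (chr17:34305877-34316199), was the most abundant of the 3 chain genes of the A and E molecules. Counts were 17, 12 and 44 in the controls and 33, 29 and 45 in the Ni libraries. Control replicates 1 and 2 lay below all Ni libraries, and control replicate 3, at 2.64 CPM, lay above the highest of them, at 2.49 CPM. Mean levels were 1.44 ± 1.04 CPM and 1.98 ± 0.440 CPM (SD, n = 3 each), a log2 fold change of 0.46 (SE 0.47, edgeR adjusted p = 0.707). Without control replicate 3 it was 1.23 (edgeR adjusted p = 0.0676), and it ranged down to 0.16 when one of the other libraries was left out.

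Cd74, the invariant chain (chr18:60803848-60812646), was the most abundant member and differed widely within the control group. The controls held 219, 202 and 469 counts and the Ni libraries 503, 296 and 440. Scaled, these were 12.0, 12.7 and 28.1 CPM in the controls and 27.3, 17.0 and 24.3 CPM with Ni. The highest library of all was control replicate 3, and the other controls lay below every Ni library. The log2 fold change was 0.38 (SE 0.35, edgeR adjusted p = 0.673) with all 6 libraries. Without control replicate 3 it was 0.90 (SE 0.19, edgeR adjusted p = 0.00658), the only setting in which a member passed the threshold. In that fit 2283 of 15044 tested genes passed, Cd74 among them. Without control replicate 1 the log2 fold change of Cd74 was 0.16.

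H2-DMa, the α chain of the peptide editor, varied least within groups among the tested members. The controls held 257, 201 and 251 reads of it, the Ni libraries 352, 296 and 323. These were 14.0, 12.7 and 15.1 CPM against 19.1, 17.0 and 17.8 CPM. The groups did not overlap, control replicate 3 included, and means were 13.9 ± 1.20 CPM and 17.996 ± 1.04 CPM (SD, n = 3 each). The log2 fold change was 0.37 (SE 0.13, edgeR unadjusted p = 0.0163, adjusted p = 0.318). It stayed between 0.31 and 0.43 whichever library was left out, with an edgeR adjusted p from 0.0550 without control replicate 3, where it was 0.43, to 0.830 without control replicate 2. The unadjusted edgeR p exceeded 0.05 without control replicate 2 (0.0593) and without Ni replicate 1 (0.0694). H2-DMb1, its β chain (chr17:34153072-34160230), gave no such picture. Counts were 65, 39 and 92 in the controls and 82, 48 and 66 in the Ni libraries, fully overlapping. The log2 fold change was -0.09 (SE 0.32, edgeR adjusted p = 0.936), 0.27 without control replicate 3 and 0.08 without Ni replicate 2. Whether the fold changes of both editor chains differ was not tested.

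**Figure D3:**
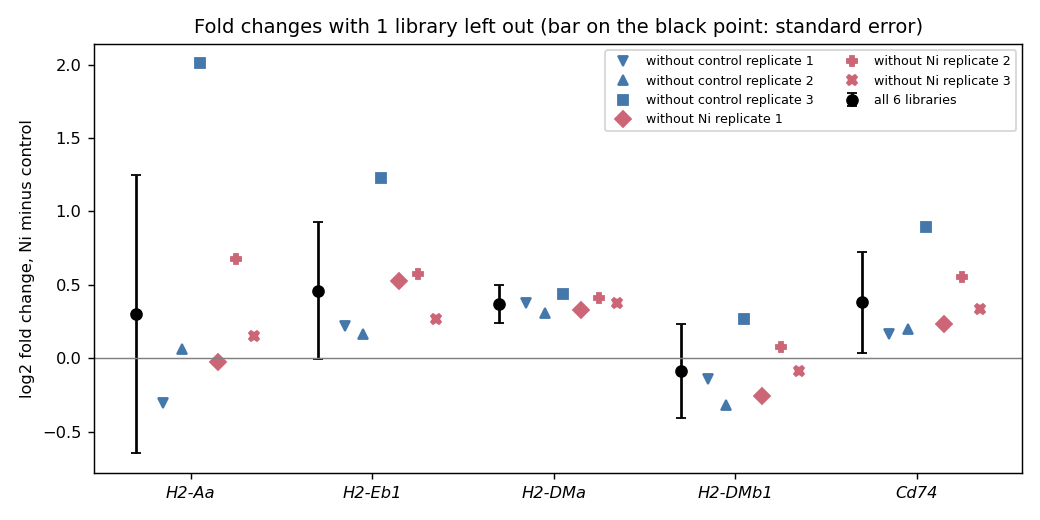
Log2 fold change of the Ni over the control group for the 5 tested class II genes, with all 6 libraries (black, bar of 1 standard error) and with each library left out in turn (coloured markers). H2-DMa stays between 0.31 and 0.43, while H2-Aa runs from -0.31 to 2.01 and Cd74 from 0.16 to 0.90.

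As class II genes are made mainly by antigen-presenting cells, each member was also set against the mean log2 CPM of the 23 macrophage markers in the same library. That mean was 8.50, 8.57 and 8.49 in the controls and 8.44, 8.41 and 8.38 in the Ni libraries. H2-DMa lay 4.71 ± 0.165 log2 units below it in the controls and 4.23 ± 0.0684 below it with Ni (SD, n = 3 each), a difference of 0.48 with an exact two-sided permutation p of 0.1, the smallest that 3 against 3 libraries allow. The difference was 0.58 for Cd74 (exact permutation p = 0.3), 0.72 for H2-Eb1 (exact permutation p = 0.3), 0.91 for H2-Aa (exact permutation p = 0.7) and 0.08 for H2-DMb1 (exact permutation p = 0.9). These are differences of mean log2 CPM, a measure unlike edgeR's log2 fold change, so the 2 cannot be compared directly. For H2-Aa, control replicate 1 had no count and lay at -11.6 log2 units from the macrophage mean. For no member did scaling to the macrophage genes bring the group difference past the threshold, which this design cannot reach.

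The profile of the 5 tested members over the libraries was averaged. Centred on each gene's mean, the average of the 5 genes was -0.78, -0.52 and 0.64 in the controls and 0.45, -0.18 and 0.39 in the Ni libraries on the log2 scale. Control replicate 3 was the highest library and Ni replicate 2 the lowest with Ni. Cd74 lay closest to this average, which it helps to form, with a root mean square difference of 0.0694, and H2-Aa, with few counts, lay farthest at 0.785. As each of the 5 helps to form the average, nearness to it is partly built in. Of all tested genes, 98.8% lay farther from the average than H2-Eb1, 92.3% farther than H2-DMb1, 84.5% farther than H2-DMa and 10.6% farther than H2-Aa. This distance counts the size of the swings as well as their direction. H2-Aa had the sign of the average in each library but swung more widely. It ran from -2.35 in control replicate 1, where it had no count, to 1.41 in control replicate 3. H2-DMa was split by group instead. The 10 other tested genes closest to the average over the 6 libraries were Lsp1 (0.0951), Snrpn, Napsa, Tarm1, Cav1, Mipol1, Chst11, Gm27209, Glis1 and Fgf10 (0.166). These are descriptions over 6 libraries and were not tested.

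**Figure D4:**
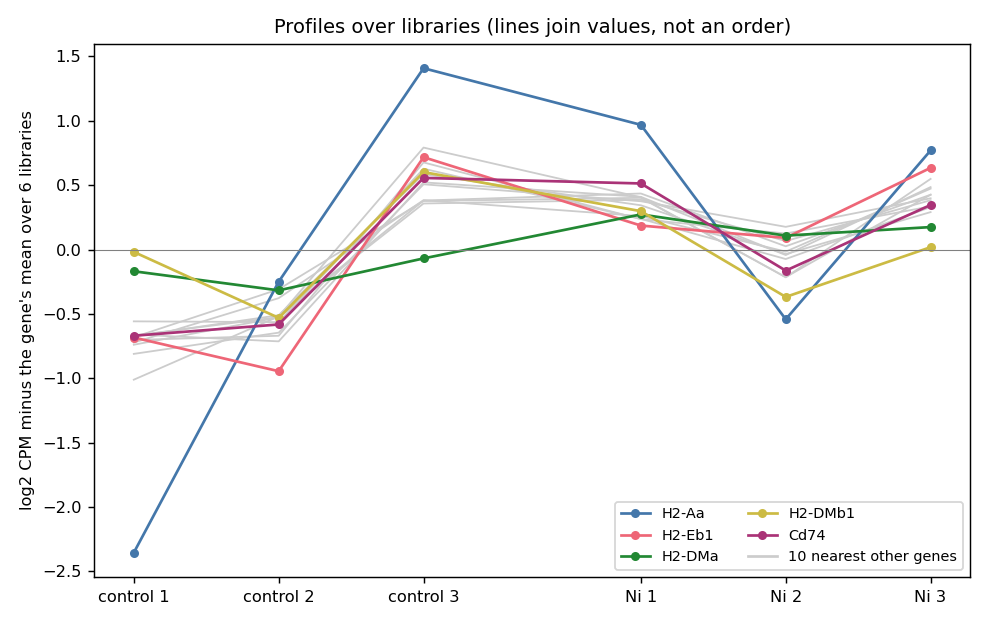
Log2 CPM minus each gene's mean over the 6 libraries, for the 5 tested class II genes (coloured) and the 10 other tested genes with the nearest profile (grey). Control replicate 3 sits with or above the Ni libraries for H2-Aa, H2-Eb1, H2-DMb1 and Cd74, but not for H2-DMa.

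Of the 5 other class II genes in the table, 2 were tested. H2-Ob, a chain of the H2-O dimer that restrains the peptide editor, was counted 69, 79 and 55 times in the controls, against 64, 64 and 106 with Ni (log2 fold change 0.11, SE 0.27), and H2-DMb2 had 29, 38 and 31 against 23, 27 and 48 (-0.09, SE 0.36). Neither differed at an unadjusted p under 0.05 in edgeR's test. H2-Oa, the partner of H2-Ob, had 7, 1 and 3 counts against 11, 3 and 0. The annotated pseudogene H2-Ea-ps was counted 2, 3 and 24 times in the controls, against 6, 2 and 10 with Ni, again with control replicate 3 the highest, and H2-Eb2 had none in any library.

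The factors that bind class II promoters were well measured, unlike the coactivator that they recruit. All 7 (Rfx5, Rfxap and the NF-Y subunits Nfya and Nfyc among them) were tested, with 3 positive and 4 negative fold changes, none at an unadjusted p under 0.05 and a median of -0.00 on the log2 scale. Of 11 lysosomal processing genes, 2 had positive and 9 negative fold changes (median -0.08). At an unadjusted p under 0.05, 7.59% of all tested genes were higher and 5.83% lower. Ctsc, the dipeptidyl peptidase cathepsin C, was the only one of the 11 at that threshold, at -0.46 (SE 0.17, edgeR adjusted p = 0.334). Of the ubiquitin ligases that remove surface class II and their antagonist Cd83, March1 was at -0.39 (SE 0.13, edgeR adjusted p = 0.309) and March8 and Cd83 did not pass the unadjusted threshold. MARCH1 protein lowers class II at the surface after translation, a step these libraries do not measure.

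The inducing pathway was present without its ligand. Ifng had no count in any library. The other 11 genes of the interferon gamma axis were tested, with 2 positive and 9 negative fold changes (median -0.13). At an unadjusted p under 0.05, where 5.83% of all tested genes were lower, 2 of the 11 were lower with Ni. These were the receptor chain Ifngr2 at -0.27 (edgeR adjusted p = 0.323) and the guanylate-binding protein gene Gbp2 at -0.37 (edgeR adjusted p = 0.344). Ni libraries lay entirely below the controls for 4 of the 11, against 6.71% of all tested genes. None of the 11 was higher at that threshold.

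Of 8 costimulatory ligand genes, which give T cells a further signal beside class II, 7 were tested, with 3 positive and 4 negative fold changes (median -0.12). Cd274, which encodes PD-L1, was at -0.85 (SE 0.31, edgeR adjusted p = 0.344), with 1703, 1502 and 660 counts in the controls and 726, 823 and 718 with Ni. For Cd274 control replicate 3 was the lowest control, where it was the highest for Cd74. The 17 genes of the class I pathway had 2 positive and 15 negative fold changes (median -0.07). The immunoproteasome subunit Psmb9 was at -0.57 (SE 0.13, edgeR adjusted p = 0.224). It was the only one of the 17 at an unadjusted p under 0.05, where 5.83% of all tested genes were lower. None of these lists held a gene at an adjusted p under 0.05 by edgeR.

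**Figure D5:**
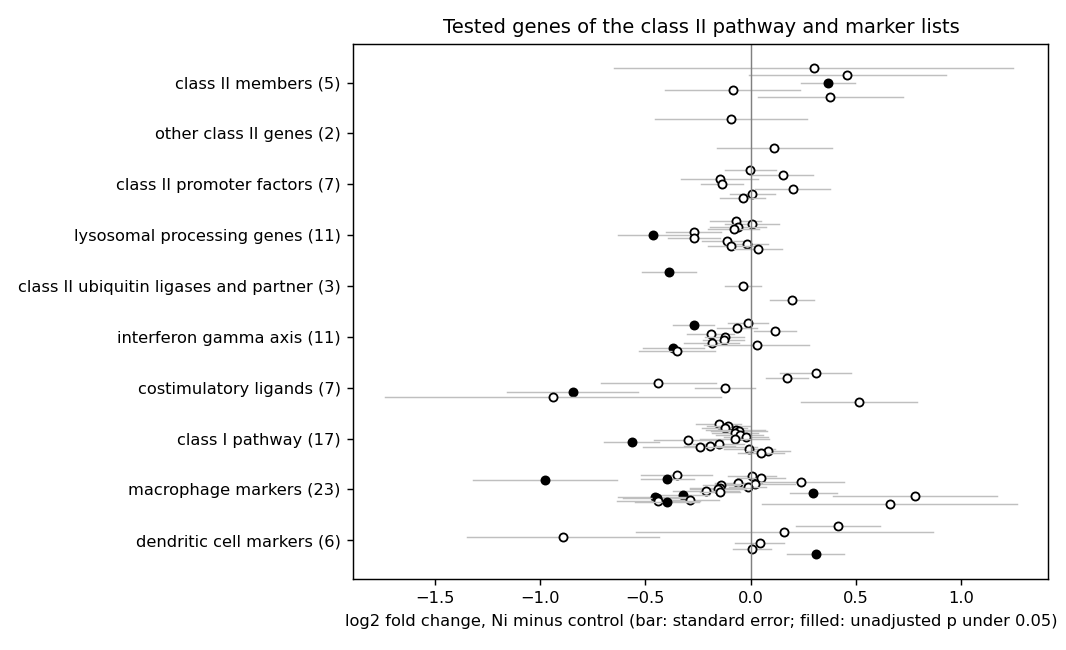
Log2 fold change of the Ni over the control group with its standard error for the tested genes of each list, filled where the unadjusted p was under 0.05. Of the class II members 4 of 5 lie above 0, while 9 of 11 interferon gamma axis genes and 15 of 17 class I pathway genes lie below it. Over all tested genes, which are not drawn, 7028 fold changes were positive and 7596 negative. Differences between the lists were not tested.

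Markers of the cells that could carry class II were read in the same libraries. Of the 23 macrophage markers, 7 had positive and 16 negative fold changes (median -0.14). Of these, 1 positive and 6 negative had an unadjusted p under 0.05, where 7.59% of all tested genes were higher and 5.83% lower. Itgam had the lowest p of the list (-0.40, edgeR adjusted p = 0.306). Of 13 dendritic cell markers 6 were tested, 5 with positive fold changes, and Fscn1 was higher at an unadjusted p under 0.05 (0.31, edgeR adjusted p = 0.367). The summed level of that list was 425.7 to 485.4 CPM in the controls and 467.7 to 548.1 CPM with Ni. Most of it came from Fscn1 (146 to 245 CPM over the libraries), Tcf4 (133 to 147 CPM) and Clec10a (103 to 141 CPM). Which cells made these transcripts was not tested. The members of that list differed widely in level. Cd209a had no count, Flt3 0 to 3 counts and Xcr1 1 to 13 counts in a library, whereas Clec10a, a lectin receptor also found on macrophages, had 1813 to 2449 counts and a mean of 40.3 FPKM. Itgax, encoding CD11c, was counted 22, 19 and 125 times in the controls, against 66, 44 and 89 with Ni, so it too was highest in control replicate 3, as for Cd74. It was chosen for this resemblance after its values were seen, and the other genes of the list were mixed. Tcf4 was also highest in control replicate 3 by CPM, but its libraries differed little (133 to 147 CPM). For Zbtb46 and Fscn1 control replicate 3 was the highest control. Batf3, a transcription factor of conventional dendritic cells, went the other way with 378, 389 and 109 counts in the controls and 170, 202 and 127 with Ni, and Clec10a had 2164, 1813 and 1917 counts in the controls. The part of macrophages or dendritic cells in the class II values was not tested.

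Other marker lists added little. Of 10 B cell markers 4 were tested (1 positive, 3 negative), of 7 T cell markers 1 (Cd4, negative), of 10 neutrophil markers 2 (1 positive, 1 negative) and of 6 endothelial markers all 6 (2 positive, 4 negative). The B cell list summed to 118.4 to 269.9 CPM in the controls and 117.3 to 136.9 CPM with Ni, mostly from Ighm, at -1.11 (SE 0.45, edgeR adjusted p = 0.371), with 2662, 2793 and 858 counts in the controls and 999, 1224 and 862 with Ni. Ighm lay opposite to Cd74 over the controls. Their part in the class II values was not tested either.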

How the data were processed

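RNA-seq was analysed from the tables that the authors deposited for 3 control and 3 Ni libraries. As deposited, the counts are raw, whole numbers for each gene. FPKM, as the authors deposited it, was recovered from count, gene length and 1 factor per library to a relative deviation of 3.29e-07, and gene length is a column of the authors' table. Coordinates are GRCm38, the build in the submitters' processing notes. The aligner, counting tool and strand setting are not given in the sources used here.

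Genes were filtered by edgeR's filterByExpr, scaled by TMM and compared between groups by its quasi-likelihood test (edgeR 4.0.16, R 4.3.3) with Benjamini-Hochberg adjustment, over all 14624 tested genes, without covariates. Standard errors came from the unshrunk coefficient and the F statistic. DESeq2 1.42.0 and limma 3.58.1 (on log2(FPKM + 1) and log2(FPKM + 0.1)) were alternatives. Profiles used log2 CPM with a prior count of 2. Counting intervals are exact Poisson intervals at 95%. Scripts were tested on simulated data. Libraries within a group differed beyond sampling noise, with a chi-square of at least 4.37 for each degree of freedom.

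The members and lists were chosen with earlier results of these data known. Named genes are all members, the other class II genes, the 3 most abundant and 3 lowest-p genes of each list, and the 10 nearest profiles. Rfx5, Csf1r, H2-D1, Itgax, Tcf4, Flt3, Xcr1 and the marker genes at 0 were added after their values were seen. Overlaps and exon stretches were read from GENCODE M21, and promoters from RefSeq.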

Additional observations from a re-analysis of the deposited data

How the results depend on the processing

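The number of class II members called stayed at 0 under every normalization, filter, test and pseudocount tried, and reached 1 (Cd74) when control replicate 3 was left out, so that leaving out each library gave 0 to 1. The median of the members, 0.37, ranged from 0.16 to 0.90 with 1 library left out, the highest without control replicate 3, and from 0.33 to 0.47 otherwise. With 1 library left out, the log2 fold change ranged from -0.31 to 2.01 for H2-Aa, 0.16 to 1.23 for H2-Eb1, 0.31 to 0.43 for H2-DMa, -0.32 to 0.27 for H2-DMb1 and 0.16 to 0.90 for Cd74. Relative to the macrophage markers, the difference in mean log2 CPM ranged from -0.059 to 1.83 for H2-Aa and -0.22 to 0.38 for H2-DMb1. It was 0.38 to 1.24 for H2-Eb1, 0.39 to 0.55 for H2-DMa and 0.37 to 0.98 for Cd74.

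Over all genes, edgeR called 0 of 14624 (1963 at an unadjusted p under 0.05). The other fits differed in the number of genes fitted. DESeq2 called 257 of 25876 and edgeR without a filter 1027 of 25876. Leaving out 1 library gave 0 to 2283 (2283 of 15044 without control replicate 3, 13 of 15004 without Ni replicate 2). The cause was not tested. Same-numbered libraries of the groups correlated by 0.0104, 0.256 and 0.138 in their deviations. Whether they share more than a number is not given in the sources used here. With the replicate number as a block, 315 genes were called and no class II member (H2-DMa 0.37, edgeR adjusted p = 0.153). H2-Aa has no value with at least 10 counts in every library. H2-Ab1 and Ciita are fitted only without a filter or by DESeq2. DESeq2 gave H2-Aa no adjusted p. The low counts of H2-Aa, H2-Ab1 and Ciita limit their precision.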
